A study of Mus musculus with 5 samples.

Results

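The transcription factors that hold pancreatic acinar cells in their differentiated state were followed in primary acinar cells of the mouse. The 10 genes, Ptf1a, Rbpjl, Bhlha15, Nr5a2, Gata4, Gata6, Xbp1, Foxa2, Foxa3 and Mecom, were picked by name, and all 10 were found among the 23284 gene symbols of each count table. Mice of the genotype Arid1afl/fl;p48-Cre gave the 3 knockout libraries. In them Cre recombinase cuts floxed sequence out of Arid1a, which encodes a DNA-binding subunit of the SWI/SNF chromatin remodeller. Mice of the genotype p48-Cre, with no floxed allele named in the labels, gave the 2 control libraries. All mice were C57BL/6 and 8 weeks old, and all carried p48-Cre. The name p48 is an older one for Ptf1a, so both groups carry a Cre that takes its expression from one of the 10 genes, and the labels do not say whether an endogenous copy of Ptf1a was replaced. Minced pancreas had been digested, strained and kept in serum-containing medium before RNA was taken, and the labels do not say whether each library came from a separate animal. A p-value here is therefore set against library-to-library spread, part or all of which may be technical.

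Acinar cells synthesise digestive enzymes and secrete them from zymogen granules. Ptf1a, a basic helix-loop-helix protein, binds DNA with an E protein partner and either Rbpj or its pancreas-restricted relative Rbpjl, and this PTF1 complex switches on the enzyme genes. Bhlha15 (MIST1) and Xbp1 build the secretory apparatus that handles the enzymes. The nuclear receptor Nr5a2 acts with PTF1 at enzyme genes, the GATA and FOXA factors act in the formation and upkeep of the pancreatic epithelium, and Mecom encodes a zinc-finger factor of the PRDM family that acinar cells raise during injury.

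Depth separated the groups and set what could be seen. Without Rn45s, the ribosomal RNA precursor, and Lars2, set aside with it, 3155357, 3568906 and 3345121 counts remained in the knockout libraries against 67514 and 72006 in the control libraries. Rn45s took 6.78 to 10.9% of all counts in knockouts and 72.6 and 82.2% in controls. Levels below are in CPM, read counts scaled to a common library total, here the total without these 2 genes. A floor of 3 counts equalled 0.841 to 0.951 CPM in a knockout library, 41.7 and 44.4 CPM in a control library, and 21.5 CPM in both controls together. The groups also differ in depth and Rn45s share, and an effect of genotype cannot be told apart from these. Arid1a itself had 44, 121 and 42 counts in knockouts and 0 and 3 in controls, and counts over the whole gene do not check the deletion. The tissue label was borne out by enzymes and granule proteins, which made up 79.1, 67.5 and 87.5% of the counts without Rn45s and Lars2 in knockout 1, knockout 2 and knockout 3, and 66.5 and 70.3% in the controls. The islet factors Mafa and Neurog3 had 0 counts in all 5 libraries.

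Taken as a set, the 10 factors had 1558, 2532 and 1484 counts in knockout 1, knockout 2 and knockout 3 and 21 and 48 counts in control 1 and control 2. Their summed level was 494, 709 and 444 CPM in the knockouts, against 311 and 667 CPM in the controls, so the groups overlapped. Knockout 1 and knockout 2 held counts of all 10, and knockout 3 held counts of 9, with Nr5a2 at 0. Only 4 factors had a count in control 1 (Rbpjl, Gata4, Xbp1 and Foxa3) and only 3 in control 2 (Bhlha15, Gata4 and Xbp1). Ptf1a, Nr5a2, Gata6, Foxa2 and Mecom had no control count. In these 5 genes the pooled knockout level ran from 3.48 CPM for Mecom to 19.2 CPM for Ptf1a, which is under the 21.5 CPM floor of the controls. With counts this low, 0 in the controls does not show a lower control level for any of these 5 genes on the CPM scale.

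**Figure D1:**
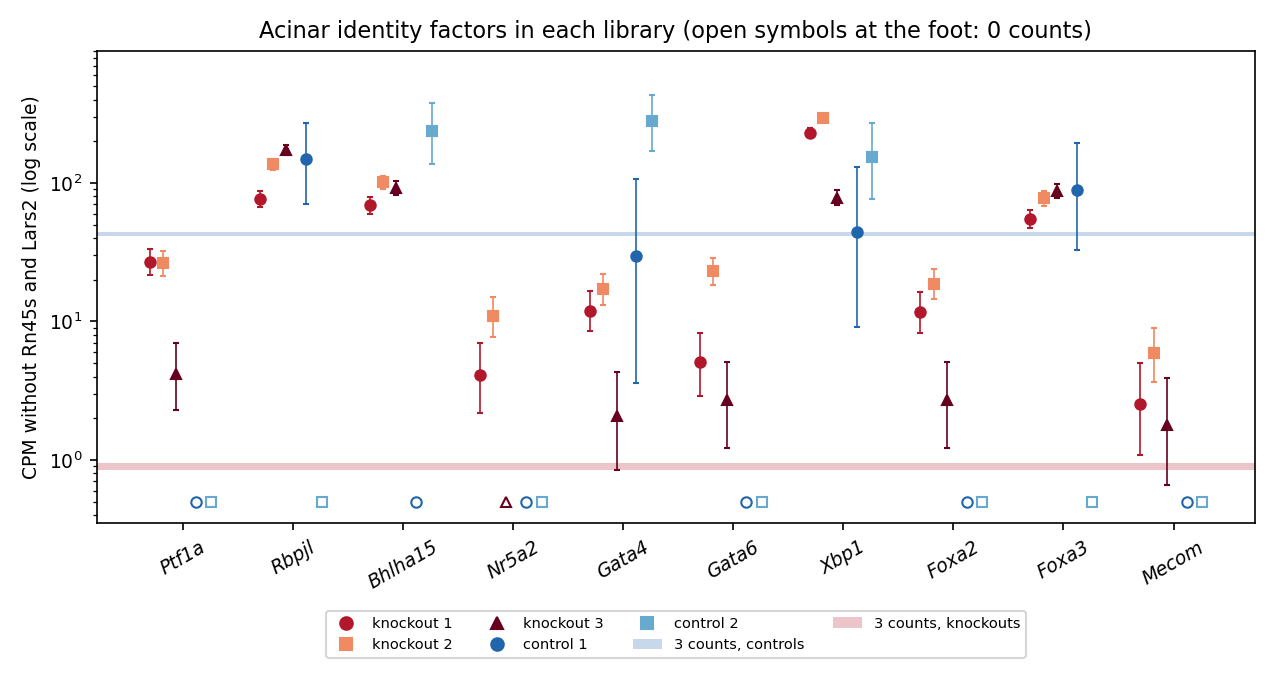
Level of each of the 10 factors in each library, in CPM without Rn45s and Lars2 on a log axis, with exact 95% Poisson intervals for counting error. Knockout libraries are red and stand left of the blue control libraries, open symbols at the foot mark 0 counts, and the bands mark 3 counts per library, which 5 of the 10 genes did not reach in either control.

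Ordered by level per kilobase of the GENCODE principal transcript, the comparison that allows for gene length, Xbp1 stood first at 94.2 ± 51.8 CPM per kilobase (SD, n = 3 knockout libraries). Rbpjl followed at 52.3 ± 19.6, Foxa3 at 36.0 ± 8.14 and Bhlha15 at 25 ± 4.73 CPM per kilobase. Over the 3 knockout libraries the ranges of neighbours among these 4 overlapped. Within each knockout library, however, Rbpjl lay above Foxa3 and Foxa3 above Bhlha15. Xbp1 was first in knockout 1 and knockout 2 and took rank 3 in knockout 3. Ptf1a, at 12.7 ± 8.6 CPM per kilobase, came next and lay below Bhlha15 in each knockout library. Foxa2 at 5.2 ± 3.79, Gata6 at 3.17 ± 3.43, Gata4 at 3.09 ± 2.26 and Nr5a2 at 2.7 ± 2.97 CPM per kilobase overlapped in their ranges, although Foxa2 was the highest of these 4 in each knockout library. Mecom was lowest, at 0.672 ± 0.43 CPM per kilobase. Ranks between genes depend on which transcripts are counted as the gene: with merged exons in place of the principal transcript, an alternative added after seeing the data, Rbpjl took rank 4 in place of rank 2.

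Ptf1a and Rbpjl, both parts of PTF1, differed from each other over the knockout libraries. Ptf1a had 85, 94 and 14 counts in knockout 1, knockout 2 and knockout 3, which is 26.9, 26.3 and 4.19 CPM, and 0 counts in both controls. Knockout 1 and knockout 2 were alike, and knockout 3 stood at 0.159 of knockout 2 (exact 95% interval 0.0837 to 0.28, counting error alone). At the pooled knockout level both controls together would have been expected to hold 2.67 counts of Ptf1a. Rbpjl, the partner that replaces Rbpj in the mature complex, went the other way: it had 242, 489 and 575 counts, or 76.7, 137 and 172 CPM, in knockout 1, knockout 2 and knockout 3. In the controls it had 10 counts (148 CPM) in control 1 and 0 in control 2, so control 1 lay within the range of the knockouts and control 2 below it. Knockout 3 thus held the least Ptf1a and the most Rbpjl of the knockout libraries.

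Windows of 300 bases around annotated starts of these genes are shown for Ptf1a and Rbpjl, because Rbpjl is known as a gene that PTF1 itself binds. They come from RefSeq on build GRCm38.p6, 250 bases before the start and 50 after it, 5′ to 3′ on the gene's strand, at chr2:19445413-19445712 (plus strand) for Ptf1a and chr2:164402944-164403243 (plus strand) for Rbpjl. Capitals mark the E-box letters CANNTG, which basic helix-loop-helix factors bind, and the RBPJ core TGGGAA, searched on both strands.
Ptf1a: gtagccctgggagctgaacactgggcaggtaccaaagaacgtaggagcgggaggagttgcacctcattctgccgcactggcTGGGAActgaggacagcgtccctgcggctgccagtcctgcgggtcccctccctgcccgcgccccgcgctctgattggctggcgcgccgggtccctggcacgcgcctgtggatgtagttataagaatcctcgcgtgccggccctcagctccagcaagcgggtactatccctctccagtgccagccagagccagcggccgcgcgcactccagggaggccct
Rbpjl: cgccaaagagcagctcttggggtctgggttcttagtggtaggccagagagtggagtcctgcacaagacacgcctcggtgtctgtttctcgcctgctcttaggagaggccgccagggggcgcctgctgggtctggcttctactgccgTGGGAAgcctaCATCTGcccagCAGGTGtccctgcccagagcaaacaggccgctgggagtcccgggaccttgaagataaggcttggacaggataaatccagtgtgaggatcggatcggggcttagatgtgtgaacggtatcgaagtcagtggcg
In the Rbpjl window an RBPJ core begins 104 bases before the start used for the window, and E-boxes begin 93 and 82 bases before it. The RefSeq gene record of Rbpjl begins further upstream, at chr2:164403081. The core and both E-boxes lie downstream of that position, inside the annotated gene. The Ptf1a window holds 1 RBPJ core, 169 bases before the start, and no E-box. Of 32851 RefSeq windows of this length, 72.3% hold an E-box, 25.6% the RBPJ core and 19.0% both. These matches are descriptions of letters, and binding was not measured here.

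Among the partners and inhibitors of PTF1 and related helix-loop-helix factors, none of 7 tested genes was called between the groups. Rbpj had 8, 16 and 4 counts in the knockouts and 1 and 0 in the controls. Per kilobase of principal transcript, Rbpjl stood at 67, 67.7 and 318 times Rbpj in knockout 1, knockout 2 and knockout 3. The last value rests on 4 Rbpj counts, or 1.2 CPM (exact 95% interval 0.326 to 3.06, counting error alone). Knockout means were 52.3 and 0.503 CPM per kilobase for Rbpjl and Rbpj, and 22.4 and 0.215 with merged exons. Of the E protein genes, Tcf3 had 6.02, 14.6 and 4.78 CPM in the knockouts and 14.8 and 69.4 CPM in the controls, which held 1 and 5 counts. Each knockout library lay below both controls for Tcf3, with a pooled ratio of 0.201 (exact 95% interval 0.0887 to 0.562) and an edgeR adjusted p of 0.606. The control 1 value is a single count, under the floor of 44.4 CPM in that library. Without control 2 the ratio was 0.583, with an interval of 0.102 to 23.3. Among all tested genes, 11.0% had every knockout library below both controls. Tcf12 had 4.12, 10.1 and 0.598 CPM in the knockouts and 44.4 and 0 CPM in the controls. Tcf4 had 9.82, 25.5 and 6.58 CPM in the knockouts, against 0 CPM in control 1 and 194 CPM in control 2, so its counts too came from 1 control library. The Id genes, whose products bind E proteins and keep them from DNA, were present as well. Id1 had 29.2, 74.3 and 1.79 CPM in knockout 1, knockout 2 and knockout 3 and 0 and 13.9 CPM in the controls, so knockout 3 was the lowest of the knockouts here too. Id3 had 22.5, 29.4 and 1.2 CPM in the knockouts and no control count.

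The secretory maturation factors Bhlha15 and Xbp1 differed in how they varied. Bhlha15, which scales up granule formation, had 217, 359 and 309 counts in knockout 1, knockout 2 and knockout 3, or 68.8, 101 and 92.4 CPM. It had 0 counts in control 1 and 17 counts (236 CPM) in control 2. Its knockout libraries lay within a narrow range, and both controls lay outside it, one on each side. Xbp1, the transcription factor of the unfolded protein response that is activated by splicing of its messenger RNA, had 728, 1044 and 262 counts, or 231, 293 and 78.3 CPM, in the same libraries. Its controls held 3 and 11 counts, 44.4 and 153 CPM, and the groups overlapped. The counts do not separate the spliced from the unspliced Xbp1 form. Knockout 3 stood at 0.268 of knockout 2 for Xbp1 (exact 95% interval 0.233 to 0.307) but at 0.918 for Bhlha15 (0.786 to 1.07).

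The Bhlha15 window (chr5:144190036-144190335, plus strand) and the Xbp1 window (chr11:5520391-5520690, plus strand) are printed with the same marks, as the pair of secretory factors with unlike profiles.
Bhlha15: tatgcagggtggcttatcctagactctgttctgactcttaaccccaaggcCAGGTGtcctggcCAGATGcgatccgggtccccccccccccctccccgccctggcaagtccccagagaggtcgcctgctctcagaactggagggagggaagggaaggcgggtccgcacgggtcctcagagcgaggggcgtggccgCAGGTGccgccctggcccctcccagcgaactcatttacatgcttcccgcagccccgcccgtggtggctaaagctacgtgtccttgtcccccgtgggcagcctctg
Xbp1: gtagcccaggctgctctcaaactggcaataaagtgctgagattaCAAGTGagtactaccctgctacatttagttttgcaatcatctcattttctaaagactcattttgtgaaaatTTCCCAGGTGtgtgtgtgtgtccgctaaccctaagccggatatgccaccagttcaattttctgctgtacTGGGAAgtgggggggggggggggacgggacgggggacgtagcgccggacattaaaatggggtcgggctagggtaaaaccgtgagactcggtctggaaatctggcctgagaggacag
Bhlha15 has 3 E-boxes and no RBPJ core in this window. Xbp1 has 2 E-boxes and 2 RBPJ cores, of which 1 E-box shares 2 bases with 1 core. Neither window holds the XBP1 site TGACGTG, which 2.01% of all windows hold.

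Genes known to depend on Bhlha15 and on Xbp1 were followed beside them. Of the Bhlha15-dependent genes Rab3d, Rab26, Gjb1, Atp2c2 and Copz2, none of 5 was called, and 4 of the 5 had no control count. Copz2, a coat protein gene, had 56.4, 57.2 and 75.6 CPM in knockout 1, knockout 2 and knockout 3, and Rab3d, a granule GTPase, had 51.7, 76.5 and 40.7 CPM against 88.9 and 41.7 CPM in the controls. The gap junction gene Gjb1 had 25, 45.4 and 15.8 CPM in the knockouts. Of the Xbp1-dependent secretory genes, none of 19 tested was called. The chaperone Hspa5 had 504, 642 and 123 CPM in the knockouts and 104 and 27.8 CPM in the controls. Sel1l, of the degradation machinery of the endoplasmic reticulum, had 245, 328 and 76.5 CPM in knockouts and 74.1 and 542 CPM in controls, and the translocon subunit Sec61a1 had 168, 189 and 127 CPM and 252 and 319 CPM. Hspa5, Sel1l and Sec61a1 were thus lowest in knockout 3, as Xbp1 was and as were 12 of the 20 genes on the list. Among 8247 non-enzyme, non-granule genes with at least 30 knockout counts, 78.5% were lowest in knockout 3 and highest in knockout 2. Being lowest in knockout 3 therefore does not set this list apart from other genes. The genes Dnajc3, Pdia6 and Edem1, chosen after their values were seen, were highest in knockout 3, with 117, 116 and 132 CPM. Over the 20 genes of this list the sum was 1698, 2334 and 1095 CPM in the knockouts and 1363 and 2041 CPM in the controls.

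Nr5a2, the nuclear receptor LRH-1, had 13, 39 and 0 counts in knockout 1, knockout 2 and knockout 3, or 4.12, 10.9 and 0 CPM, and none in either control. For knockout 3 the limit that 0 counts allow is 0.897 CPM, below the level of both other knockouts. Other regulators and receptors of acinar or pancreatic epithelial identity were given by a list of 15, of which 11 were tested and none was called. The cholecystokinin receptor Cckar had 122, 216 and 34.1 CPM in the knockouts and 29.6 and 0 CPM in the controls. The Hippo pathway factor Tead2 had 57.4, 91.3 and 21.5 CPM in the knockouts and 44.4 and 0 CPM in the controls. The insulin receptor Insr had 22.2, 48.2 and 9.57 CPM in the knockouts and no control count. Cckar, Tead2 and Insr were lowest in knockout 3, as were 10 of the 15 genes on the list. Of the 8247 genes, 78.5% were lowest there and highest in knockout 2, so this count does not set the list apart. Klf15 (8.24, 15.4 and 10.8 CPM), Spdef and Prox1, named after their values were seen, were lowest in knockout 1.

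Of the GATA pair only Gata4 was counted in the controls. Gata4 had 38, 61 and 7 counts in knockout 1, knockout 2 and knockout 3, or 12, 17.1 and 2.09 CPM, and 2 and 20 counts, 29.6 and 278 CPM, in control 1 and control 2. Every knockout library lay below both controls. Pooled over libraries, knockout over control gave a ratio of 0.0668 (exact 95% interval 0.0419 to 0.111, counting error alone). Most of the control counts came from control 2, and without that library the ratio was 0.355 with an interval of 0.096 to 2.97. Gata6 had 16, 82 and 9 counts in the knockouts, or 5.07, 23.0 and 2.69 CPM, and none in the controls. Knockout 2 stood at 4.53 times knockout 1 for Gata6 (exact 95% interval 2.63 to 8.3), the widest step between those libraries among the 10 factors. Islet markers summed to 192, 1058 and 220 CPM in knockout 1, knockout 2 and knockout 3 and to 104 and 708 CPM in the controls. Duct markers summed to 389, 1220 and 267 CPM in the knockouts and to 770 and 639 CPM in the controls, so both sums were highest in knockout 2 among the knockouts, as Gata6 was. Of the 8247 genes, 78.5% were highest in knockout 2 and lowest in knockout 3, so this shared peak does not set Gata6 apart. Endothelial, stellate, macrophage and lymphocyte marker sums, given below, were highest there too. All 10 islet markers and all 8 duct markers are in the islet and duct sums, Car2 was at 0 in knockout 3, and 7 of the islet and 2 of the duct markers had no control count. Their part in the Gata6 level was not tested, and in bulk RNA fewer cells of a type and less RNA per cell cannot be told apart.

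The forkhead pair split as well. Foxa2, which acts in many endoderm-derived epithelia, had 37, 67 and 9 counts in knockout 1, knockout 2 and knockout 3, or 11.7, 18.8 and 2.69 CPM, with no control count. Foxa3 had 174, 276 and 293 counts, or 55.1, 77.3 and 87.6 CPM, and 6 counts (88.9 CPM) in control 1 with 0 in control 2. Foxa2 was lowest and Foxa3 highest in knockout 3. Per kilobase, Foxa3 stood at 27.1, 38.0 and 43.0 CPM and Foxa2 at 5.51, 8.82 and 1.26 CPM, so Foxa3 was the higher of the pair in each knockout library. Mecom had 8, 21 and 6 counts in the knockouts, at most 5.88 CPM, and none in the controls. It was the 1 factor that the low-count filter removed before the test.

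The Foxa3 window (chr7:19023490-19023789, minus strand) is given because Foxa3, like Rbpjl and Bhlha15, was not lowest in knockout 3. It holds 1 E-box, no RBPJ core and no match to the forkhead letters TGTTTAC, which 3.65% of all windows hold.
Foxa3: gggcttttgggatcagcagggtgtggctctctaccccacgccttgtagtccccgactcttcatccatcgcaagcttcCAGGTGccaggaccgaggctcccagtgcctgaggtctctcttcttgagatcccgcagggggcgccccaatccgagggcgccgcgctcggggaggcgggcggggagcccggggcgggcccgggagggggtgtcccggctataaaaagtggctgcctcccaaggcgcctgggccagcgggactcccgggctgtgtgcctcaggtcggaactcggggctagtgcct
The E-box letters in this window, CAGGTG, also occur in the Rbpjl, Bhlha15 and Xbp1 windows printed above. Xbp1 was lowest in knockout 3, so these letters do not mark the factors that were not. The share of all windows that hold CAGGTG was not taken.

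The comparison of knockout with control asks whether loss of Arid1a changes these factors. None of the 9 tested factors was called by edgeR's quasi-likelihood test at a Benjamini-Hochberg adjusted p under 0.05 over all 8261 tested genes, of which 0.339% were called in either direction, 0.0484% higher and 0.291% lower. At an unadjusted p under 0.05, 6 of the 9 were higher and 1 lower, where 29.4% of all genes were higher and 5.06% lower. The median log2 fold change of all genes was 2.05, so a fitted value is best read as its distance from that median. The 9 factors had a median of 3.01, but 4 of them (Ptf1a, Nr5a2, Gata6 and Foxa2) had no control count, as had 35.1% of all tested genes. With genes without a control count set at the floor of 21.5 CPM, the median log2 ratio of pooled CPM was -0.47 for the 9 factors and -1.11 for all tested genes. The pooled knockout levels of those 4 factors lay under this floor, so their negative ratios follow from it. Genes with control counts below the floor kept their own lower level, so both medians depend on this choice.

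For the 5 factors with control counts the fitted log2 fold changes, given with SE, were these. Rbpjl had 3.01 ± 1.32 (edgeR adjusted p = 0.129), which is 0.97 above the median gene. Foxa3 had 2.89 ± 1.24 (edgeR adjusted p = 0.123), 0.84 above it. Xbp1 had 2.68 ± 1.02 (edgeR adjusted p = 0.0973), 0.64 above the median. These distances rested on single control libraries: without control 1 and without control 2 they were 5.81 and -3.50 for Rbpjl, 4.94 and -3.63 for Foxa3, -3.95 and -1.62 for Xbp1, and -5.41 and 5.68 for Bhlha15. Bhlha15 had 1.59 ± 1.19 (edgeR adjusted p = 0.319), which is -0.46 relative to the median. Its own sign was negative with totals without Rn45s and Lars2 (-0.50) and with upper quartile factors (-0.51), where the median gene was at 0.17 and 0.46, and relative to it Bhlha15 lay at -0.67 and -0.97. Gata4 had the lowest value of the 9, -2.35 ± 0.88 (edgeR adjusted p = 0.0949), or -4.40 relative to the median gene. DESeq2 called 2 of the 9, Xbp1 (2.24, adjusted p = 0.028) and Gata4 (-2.85, adjusted p = 0.0334), where it called 12.7% of all genes. Without control 2 the Gata4 value was 0.14 (edgeR adjusted p = 0.93), while the median gene stood at 5.57, so Gata4 lay at -5.42 relative to it. For the 4 factors without a control count the edgeR adjusted p ran from 0.083 for Ptf1a to 0.315 for Nr5a2, and without a low-count filter Ptf1a (0.0309) and Rbpjl (0.0493) passed, as did 10.5% of all genes.

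**Figure D2:**
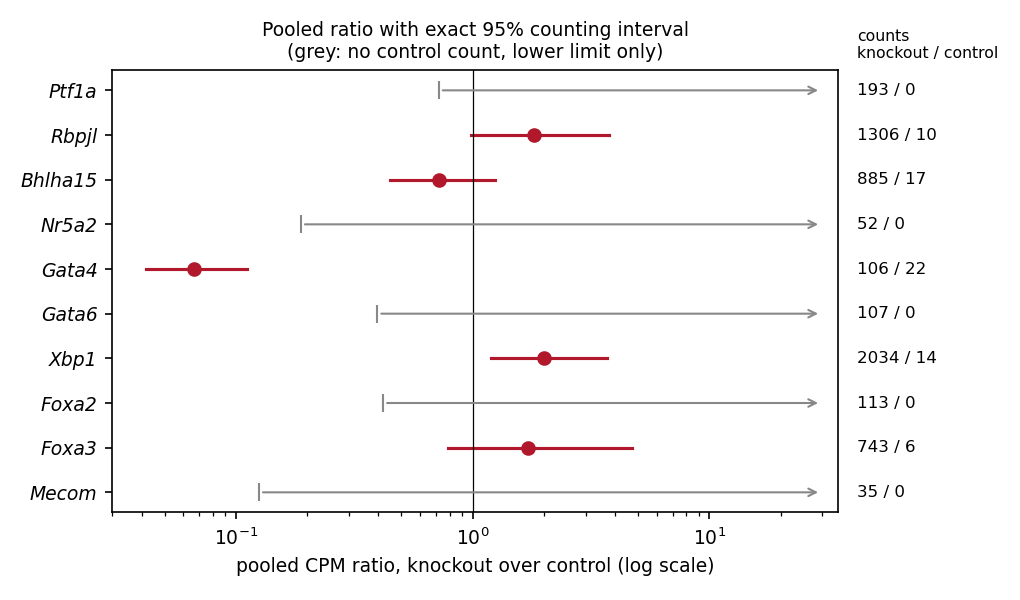
Pooled CPM ratio of knockout over control for the 10 factors on a log axis, with exact 95% binomial intervals that cover counting error only, and the counts of each group at the right. Gata4 lies at 0.0668 and Xbp1 at 2.01 with intervals that leave out 1, those of Rbpjl, Bhlha15 and Foxa3 include 1, and grey arrows mark genes with no control count, for which there is only a lower limit.

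Groups did not overlap for 4 of the 9 tested factors, Ptf1a, Gata6 and Foxa2 on the higher side of the control libraries and Gata4 on the lower side. Among all tested genes 37.0% did not overlap with the knockouts higher and 11.0% with the knockouts lower. For Ptf1a, Gata6 and Foxa2 the controls were at 0, so this lack of overlap reflects the 0 counts only. The pooled ratios of the others were 1.81 for Rbpjl (exact 95% interval 0.981 to 3.78), 0.721 for Bhlha15 (0.448 to 1.24), 2.01 for Xbp1 (1.2 to 3.69) and 1.72 for Foxa3 (0.785 to 4.69). These intervals take the reads as independent.

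Control counts of these factors were not spread evenly over the control libraries. Control 1 held 48.4% of the control depth. All 10 Rbpjl counts and all 6 Foxa3 counts came from control 1, which gives a share of 100% with exact 95% lower limits of 69.2% and 54.1%. Bhlha15 was the reverse, with 0 of 17 counts in control 1 and an upper limit of 19.5%, and Gata4 had 9.09% of its counts there (1.12 to 29.2%). For Rbpjl, Foxa3, Bhlha15 and Gata4 the share in control 1 thus lay outside what even sampling of the depth would give, which compares the 2 libraries and not conditions. The pattern was a general one: among 846 genes with 10 to 19 control counts, 40.0% had all of them in 1 control library, and among 230 genes with 20 to 49 it was 15.2%. The pooled control values of Rbpjl, Foxa3 and Bhlha15 therefore rest on 1 library each. With control 1 alone the pooled Rbpjl ratio was 0.876 (exact 95% interval 0.475 to 1.83), and with control 2 alone, at 0 counts, its lower limit was 2.53. The Foxa3 ratio was 0.83 (0.38 to 2.27) with control 1 alone and had a lower limit of 1.44 with control 2 alone. The Bhlha15 ratio was 0.372 (0.231 to 0.642) with control 2 alone and had a lower limit of 1.61 with control 1 alone. For these 3 genes the direction thus depended on which control was used. The Xbp1 ratio was 1.32 (0.737 to 2.65) with control 2 alone, an interval that includes 1, and 4.55 (1.55 to 22.1) with control 1 alone.

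The order of the factors was then set against enzyme output over the knockout libraries, where depth allows it. Enzyme and granule transcripts rose in share from knockout 2 (67.5%) over knockout 1 (79.1%) to knockout 3 (87.5%). Nr5a2, Gata4, Gata6, Xbp1, Foxa2 and Mecom, 6 of the 10, ran in the opposite order, highest in knockout 2 and lowest in knockout 3. That is also the usual order of a gene that is no enzyme: of 8247 genes outside the enzyme and granule lists with at least 30 knockout counts, the factors among them, 78.5% ran opposite to enzyme output and 1.46% ran with it. Ptf1a, with knockout 1 and knockout 2 at nearly the same level and knockout 3 far below, missed that order narrowly. Rbpjl, Foxa3 and Bhlha15 departed from it. No factor ran in the same order as the enzymes on this scale.

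**Figure D3:**
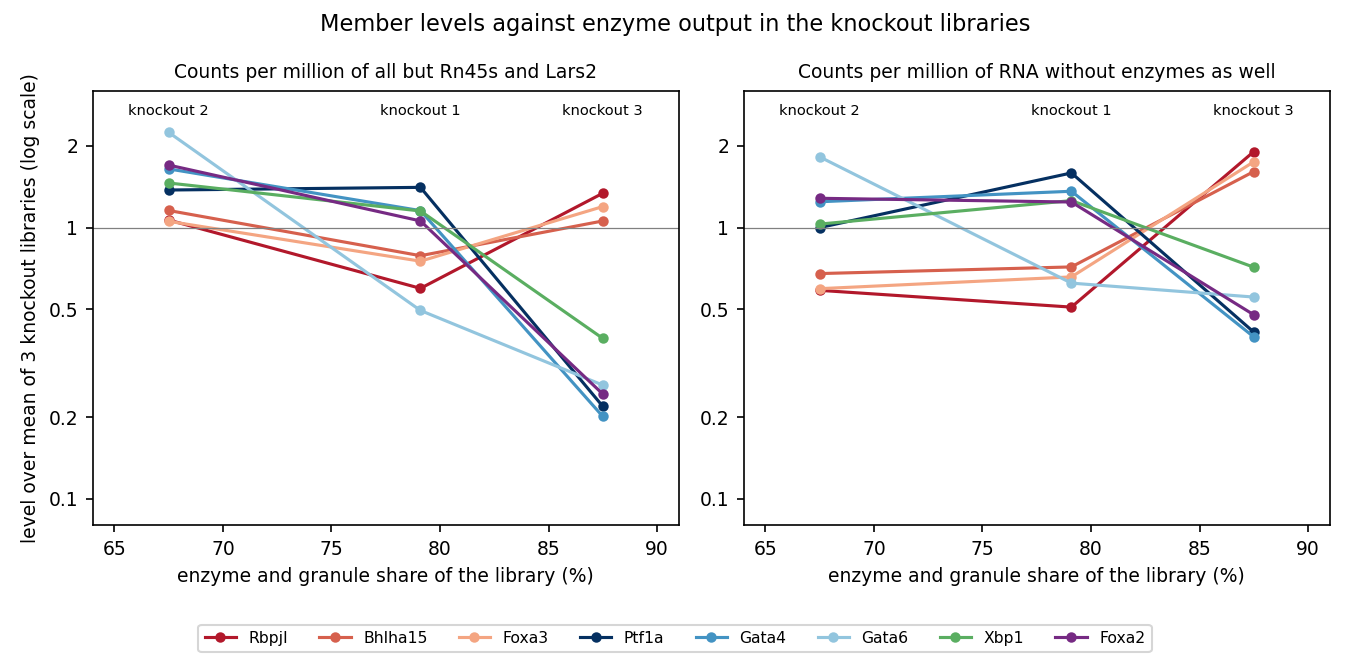
Level of 8 factors in each knockout library over their mean of the 3 libraries (log axis), against the share of enzyme and granule transcripts, as CPM without Rn45s and Lars2 (left) and of the total without enzymes and granule proteins as well (right). In both panels Rbpjl, Bhlha15 and Foxa3 are not lowest in knockout 3 and the other factors drawn are lowest there, while Nr5a2 and Mecom, with 52 and 35 knockout counts, are not drawn.

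Because a larger enzyme share lowers the CPM of every other gene, the same levels were also taken as CPM of the counts left without enzymes and granule proteins, which were 660919, 1159231 and 419179 in knockout 1, knockout 2 and knockout 3. On that scale Rbpjl stood at 366, 422 and 1370, Bhlha15 at 328, 310 and 737, and Foxa3 at 263, 238 and 699. Bhlha15 and Foxa3 then ran in the same order as enzyme output, where 11.2% of the 8247 genes did, and Rbpjl was again highest in knockout 3. The total left falls as the enzyme share rises, so the scale itself shifts levels toward the order of enzyme output. With enzymes kept in the total, 1.46% of the 8247 genes ran in that order. Ptf1a stood at 129, 81.1 and 33.4, Xbp1 at 1100, 901 and 625, and Gata4 at 57.5, 52.6 and 16.7, each still lowest in knockout 3. Foxa2, at 56.0, 57.8 and 21.5, and Gata6, at 24.2, 70.7 and 21.5, were lowest in knockout 3 as well. The number of factors in the opposite order to enzyme output dropped to 3 (Nr5a2, Gata6 and Foxa2), beside 43.9% of the 8247 genes. In the controls, with enzyme shares of 66.5 and 70.3%, the 10 factors were few in count. On this scale they summed to 2360, 2180 and 3540 CPM in the knockouts and to 930 and 2240 CPM in the controls.

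Knockout 3 was compared with each other knockout library to show how far the 3 departing factors, chosen after their values were seen, stood from other genes. The median of the 8247 genes had a log2 ratio of -0.98 for knockout 3 over knockout 1 and -1.95 for knockout 3 over knockout 2, on the log2(CPM + 0.5) scale. Rbpjl had 1.16 and 0.33, and 2.29% and 2.91% of genes were as high or higher. Foxa3 had 0.66 and 0.18, reached by 5.64% and 3.86% of genes, and Bhlha15 had 0.42 and -0.12, reached by 8.43% and 5.95%. Only 4.38% of genes were above 0 in both ratios. Ptf1a had -2.55 and -2.52, so it lay further down than the median gene in both, and Nr5a2 was the lowest factor at -3.21 and -4.51. Xbp1, at -1.55 and -1.89, was close to the median gene in the second ratio. Markers of other cell types also differed between the knockout libraries. Endothelial markers summed to 181, 216 and 41.9 CPM in knockout 1, knockout 2 and knockout 3, with 7 of 7 at 0 in the controls, and stellate markers to 90.0, 219 and 35.6 CPM, against 267 and 306 CPM in the controls. Macrophage markers summed to 94.4, 339 and 78.6 CPM in the knockouts and to 207 and 69.4 CPM in the controls, and lymphocyte markers to 14.9, 64.7 and 22.1 CPM and to 311 and 27.8 CPM. Duct and islet sums were given above, and islet and lymphocyte sums, unlike the others, were lowest in knockout 1. The part of other cell types in these ratios was not tested.

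**Figure D4:**
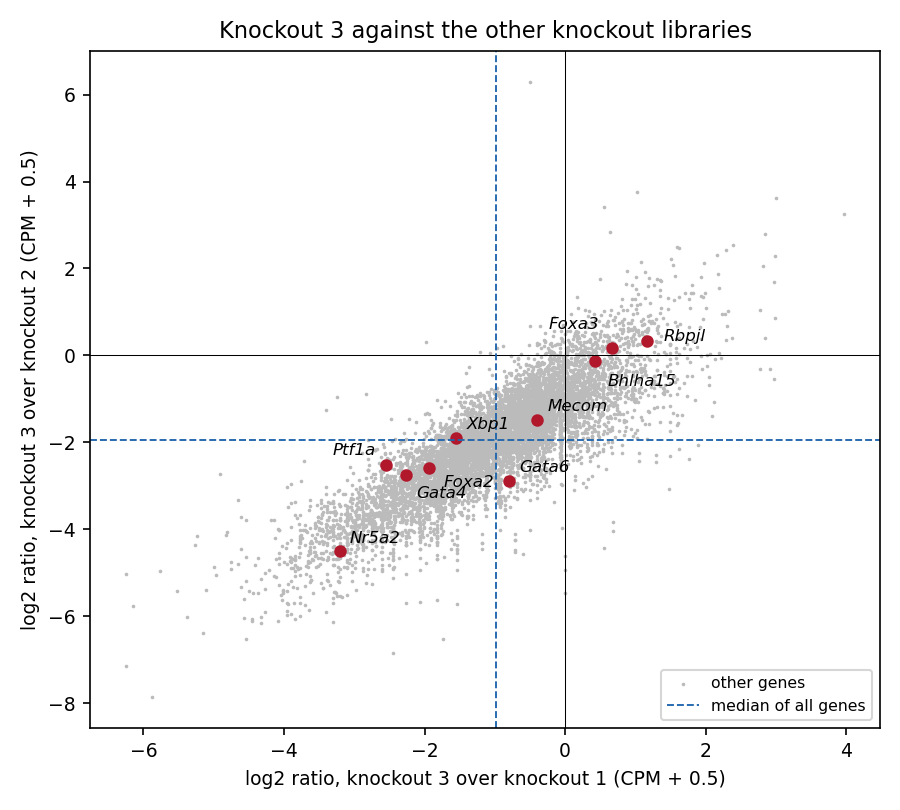
Log2 ratio of knockout 3 over knockout 1 against that of knockout 3 over knockout 2, on the CPM + 0.5 scale, for 8247 genes with at least 30 knockout counts (grey) and the 10 factors (red), with dashed lines at the medians of -0.98 and -1.95. Rbpjl and Foxa3 lie above 0 on both axes, Bhlha15 lies just below 0 on the vertical one, and the other 7 factors lie below 0 on both.

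Likeness of pattern was measured as the largest difference in centred log2 CPM over the 3 knockout libraries, for the 4 factors with at least 30 counts in each of them and among 4123 candidate genes. The nearest genes were Gmppa, Polr3k and Cpn1 for Rbpjl, at differences of 0.020, 0.023 and 0.042. For Foxa3 they were Gm5771, a trypsinogen-like gene of the enzyme list (0.0068), Pdrg1 (0.0085) and Copz1 (0.024). For Bhlha15 they were Gtf2h5 (0.014), B230118H07Rik (0.023) and Fbxw5 (0.031), and for Xbp1 they were Nol7 (0.022), Vps11 (0.025) and Arcn1 (0.028). Foxa3 was the nearest factor to both Rbpjl (0.28, rank 36 of the candidates) and Bhlha15 (0.18, rank 93), so many other genes were closer, and Nr5a2 and Mecom were not among the candidates. Over 3 libraries from one group such closeness is a description of these libraries only.

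Factors of duct cells and progenitors gave a comparison with another identity. None of 6 tested was called, and 5 of the 8 on the list had no control count. Hes1, a Notch target, had 38.3, 74.3 and 3.59 CPM in knockout 1, knockout 2 and knockout 3. Sox9, the ductal factor, had 25.7, 40.1 and 5.68 CPM, and Klf4 had 15.2, 38.4 and 0.897 CPM. Hes1, Sox9 and Klf4 were at 0 in both controls and lowest in knockout 3. Of the 8 genes on this list 4 were lowest in knockout 3, while 78.5% of the 8247 genes were lowest there and highest in knockout 2. Klf5 (2.22, 12.6 and 8.97 CPM), Sox4 and Foxj1, named after their values were seen, were lowest in knockout 1. Of the SWI/SNF subunit genes, none of 8 was called. Among the enzymes, the products that the acinar factors serve, 2 of 30 tested genes were called, both higher, beside 0.0484% of all tested genes. They were the trypsinogen-like genes Gm2663, with 2370, 1293 and 1831 counts in the knockouts and 0 in the controls (edgeR adjusted p = 0.0428), and 1810009J06Rik, with 1819, 1044 and 983 counts and 0 (edgeR adjusted p = 0.0471). Reads of near-identical trypsinogen copies may be divided among them, so both are uncertain. None of the 6 granule protein genes was called.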

How the data were processed

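Each library has 1 deposited file of raw counts by gene symbol, from poly(A)-selected libraries made with a kit that does not mark strand, per the labels' protocols. HTSeq 0.9.1 and TopHat2 2.1.1 are listed with build mm9 in the submitters' processing notes, which give no roles, beside Cuffdiff 2.2.1.5 and Cuffnorm 2.2.1.2. No annotation or strand setting is stated, so reads of overlapping genes cannot be told apart.

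The 10 factors and the gene lists were chosen with earlier results of these data known. CPM values scale deposited counts to the library total without Rn45s and Lars2. The main test was edgeR 4.0.16 (R 4.3.3, quasi-likelihood, TMM, filterByExpr, group as the only term) over 8261 genes, with calls made under 0.05 after Benjamini-Hochberg adjustment. It was also run on simulated counts at the depths of these libraries. The simulation left out Rn45s, Lars2 and any shift of the median gene between groups, so it does not check the test under those conditions. Alternatives were other scalings and filters, DESeq2 1.42.0, a replicate block and each library left out. Pooled ratios carry exact 95% binomial intervals, which cover counting error only. Named genes were the 10 factors, Arid1a, the PTF1 partners and, from each list, called members or up to 3 members with the highest knockout level. Marker lists are described by their sums instead, and other names were chosen after values were seen. Transcript lengths came from GENCODE M21 and windows from RefSeq GRCm38.p6, and no coordinate of the authors' build was used. Windows were taken by symbol for 8 of the 10 factors. Gata4 had no match, and chromosome 18, where Gata6 lies, was left out of the selection.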

Additional observations from a re-analysis of the deposited data

How the results depend on the processing

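Of 107 alternative values for the 9 tested factors, 100 kept their direction and their side of the threshold, 4 were newly called and 3 changed sign. Ptf1a, Nr5a2, Gata6 and Foxa2 had no control count, so their direction was fixed. Some fits without a knockout library filtered them out and gave no value. Relative to the median gene, values ran from -3.5 to 5.81 for Rbpjl and from -5.41 to 5.68 for Bhlha15. For Foxa3 they ran from -3.63 to 4.94 and for Xbp1 from -3.95 to 1.12, so these distances were not stable. The sign changes were Bhlha15 at -0.51 with upper quartile factors and -0.50 with totals without Rn45s and Lars2, and Gata4, which ran from -3.06 to 0.14 over the libraries left out in turn. All 3 came with a shift of the median of all genes (2.05 in the main test, 0.46, 0.17 and, without control 2, 5.57), and relative to it Bhlha15 stayed at -0.97 and -0.67 and Gata4 at -5.42. Genes called higher numbered 4 in the main test, 7 with upper quartile factors, 147 with TMM without Rn45s and Lars2, 16 with those totals and no TMM, 1076 without a low-count filter, 336 at 1 CPM in 2 libraries and 739 with DESeq2. Genes called lower numbered 24, and in the same settings 283, 71, 134, 710, 131 and 311, with 51 under RLE factors. Leaving out a library gave 0 to 310 called higher and 5 to 163 called lower. The replicate block called 23 higher and 2 lower and none of the factors. Same-numbered libraries had deviations that correlated at -0.022 and 0.03. With only 2 shallow controls, whose deviations mirror each other, these values cannot show whether libraries were paired. The labels state no pairing, so the numbers were not taken as pairs. The cause of the changes in counts was not tested. The summed knockout level of the 10 factors was 549 CPM, and 2690 CPM of the counts without enzymes and granule proteins, where 3 in place of 6 factors ran opposite to enzyme output. Depth in the controls limits every statement on Ptf1a, Nr5a2, Gata6, Foxa2 and Mecom.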
